A study of Mus musculus with 6 samples.

Results

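The genes described here were Igsf4a, a cell adhesion molecule of the immunoglobulin family, and 8 genes of epithelial junctions and keratin filaments: the cadherins Cdh1 and Cdh2, the claudins Cldn1 and Cldn7, occludin (Ocln), the zonula occludens scaffold Tjp1, and the keratins Krt8 and Krt18. The members were all probes on the array annotated with one of these 9 gene names, which gave 1 probe per gene, 9 of 25697 probes, and 9 of 18138 gene names. Igsf4a was chosen by its measured rank on these same arrays, and Igsf4a, Krt8 and Cldn1 stand in a gene list that the study drew from them, so the values of these 3 genes are given as a description, with no test.

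The data came from 3 lines of lung cells of athymic nude mice, labelled as endothelial progenitor cells and grown in a mouse endothelial medium with serum. EPC was the primary line at passages 3 to 6. EPC_acLDL was harvested at the same passages, after cells had been labelled with fluorescent acetylated low density lipoprotein (acLDL), sorted, and only the positive ones replated. EPC_Late was harvested at passages 16 to 20, and the study describes it as EPC_acLDL cells carried to high passage. EPC_Late against EPC thus differs by both sorting and passage, which cannot be told apart, and EPC_acLDL and EPC_Late are parent and descendant. Each line was measured on 2 Illumina mouse reference arrays, 6 in all. The lines were made by sorting for Flk-1, the product of Kdr, among other surface markers. The study's methods describe independent experiments run in duplicate, but neither they nor the labels say which arrays came from which experiment. The p-values therefore measure the spread between arrays, which may be technical.

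Igsf4a encodes a transmembrane protein, now named Cadm1, whose immunoglobulin domains bind the same or a related molecule on a neighbouring cell and whose short tail binds band 4.1 and membrane guanylate kinase proteins. In epithelial cells the cadherins form adherens junctions, the claudins and occludin seal tight junctions through scaffolds such as Tjp1, and Krt8 pairs with Krt18 in the filaments of simple epithelia. Endothelial cells use a related set, with Cdh5 as their cadherin and Tjp1 in common with epithelia.

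Few probes on these arrays stood above background. A probe was counted as above background on an array where its deposited detection p-value, the share of negative control beads as bright as the probe, was below 0.05. From 2177 to 2365 probes met this on each array, where 1285 would do so by chance, and 2333 probes (9.08%) met it on both arrays of at least 1 line and were tested. The median intensity ranged from 304.6 to 358.7 between arrays. Over the 2333 tested probes, the normalized log2 values of the arrays of a line correlated at 0.989 to 0.992.

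Of the 9 members, 4 were above background on all 6 arrays (Igsf4a, Cldn7, Cdh1 and Tjp1) and 5 on none (Cldn1, Cdh2, Krt8, Krt18 and Ocln). No member lay between these classes. Over all 25697 probes, 1686 (6.56%) were above background on all 6 arrays and 22811 on none. Counts of list probes on no array, given further on, are to be read beside this. The member nearest the threshold from inside was Cldn7, with a detection p of 0.0263 on its dimmest EPC_acLDL array, and the nearest from outside were Krt8 and Ocln, with a lowest detection p of 0.118 each.

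Among the members above background, the sequence table from RefSeq (GRCm38.p6) held the start regions of Cldn7 and Tjp1. The 250 bases before each annotated start are shown because these are the members whose levels could be compared between lines, and because transcription factors known to repress Cdh1, several of which bind E-boxes, are among the results. Each window is written along the strand of its gene, and capitals mark the E-box CAGGTG or its reverse complement CACCTG.

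Cldn7, first start, chr11:69964529-69964778, + strand: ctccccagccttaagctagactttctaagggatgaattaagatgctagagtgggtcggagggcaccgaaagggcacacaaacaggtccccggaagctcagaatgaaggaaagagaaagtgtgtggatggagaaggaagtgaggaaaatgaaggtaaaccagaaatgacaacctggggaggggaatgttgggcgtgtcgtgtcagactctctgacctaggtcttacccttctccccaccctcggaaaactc

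Cldn7, second start, chr11:69965171-69965420, + strand: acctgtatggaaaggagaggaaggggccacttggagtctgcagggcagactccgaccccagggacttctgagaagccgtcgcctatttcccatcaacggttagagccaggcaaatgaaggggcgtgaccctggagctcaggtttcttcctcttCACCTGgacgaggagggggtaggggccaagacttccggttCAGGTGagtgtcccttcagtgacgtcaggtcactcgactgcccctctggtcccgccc

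Tjp1, chr7:65371245-65371494, minus strand: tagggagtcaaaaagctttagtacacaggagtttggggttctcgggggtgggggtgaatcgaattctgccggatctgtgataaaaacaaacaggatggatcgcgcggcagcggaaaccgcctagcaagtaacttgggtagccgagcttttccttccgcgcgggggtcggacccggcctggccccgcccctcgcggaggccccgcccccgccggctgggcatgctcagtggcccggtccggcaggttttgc

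The second Cldn7 window held 2 matches, beginning 97 and 57 bases before the start, and the first Cldn7 window and the Tjp1 window held 0. Over all 32851 windows of this length, 17.2% held at least 1 match. A match describes the letters only, and binding was not measured here.

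Igsf4a was bright in EPC_acLDL and EPC_Late and dimmer in EPC. As deposited, the EPC pair read 1057 and 997, the EPC_acLDL pair 6041 and 5385, and the EPC_Late pair 5718 and 5828 intensity units. The EPC arrays thus lay below all 4 others, while the EPC_Late pair fell inside the range of the EPC_acLDL pair. The detection p was 0 on all 6 arrays.

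After background correction and quantile normalization, the log2 signal of Igsf4a was 9.58 ± 0.08 in EPC, 12.27 ± 0.13 in EPC_acLDL and 12.48 ± 0.01 in EPC_Late (mean ± SD, n = 2). The difference on this scale was 2.69 for EPC_acLDL minus EPC, a 6.45-fold higher signal, and 2.90 for EPC_Late minus EPC, a 7.49-fold higher signal. The study's gene list gives Igsf4a the opposite direction in both of these comparisons. The same holds for CSDA, a gene of the tight junction list described with the results. The direction here is that of the columns as their headers and the sample labels name them. Igsf4a was low in 1 line and high in the other 2, whose means lay 0.21 apart. EPC and EPC_acLDL differed in the fewest probes, 77, against 557 for EPC_Late and EPC and 487 for EPC_Late and EPC_acLDL. An exchange of labels would change the signed differences given here. Whether labels were exchanged was not tested and cannot be told from the headers and labels.

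EPC_Late minus EPC_acLDL was 0.215 on the log2 scale, 1.16-fold, and the ratio of the mean intensities as deposited was 1.01. Ordered by level, EPC was lowest, and the upper 2 lines were neighbours whose deposited intensities overlapped, although their normalized values did not. Counted from the largest increase among the 2333 probes, Igsf4a ranked 1 in EPC_acLDL against EPC, 11 in EPC_Late against EPC and 606 in EPC_Late against EPC_acLDL. The first and second of these comparisons share the EPC arrays. With no background correction the differences from EPC were 2.25 and 2.45 (log2), and with each array shifted to a common 75th percentile EPC_Late minus EPC_acLDL was 0.023.

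**Figure D1:**
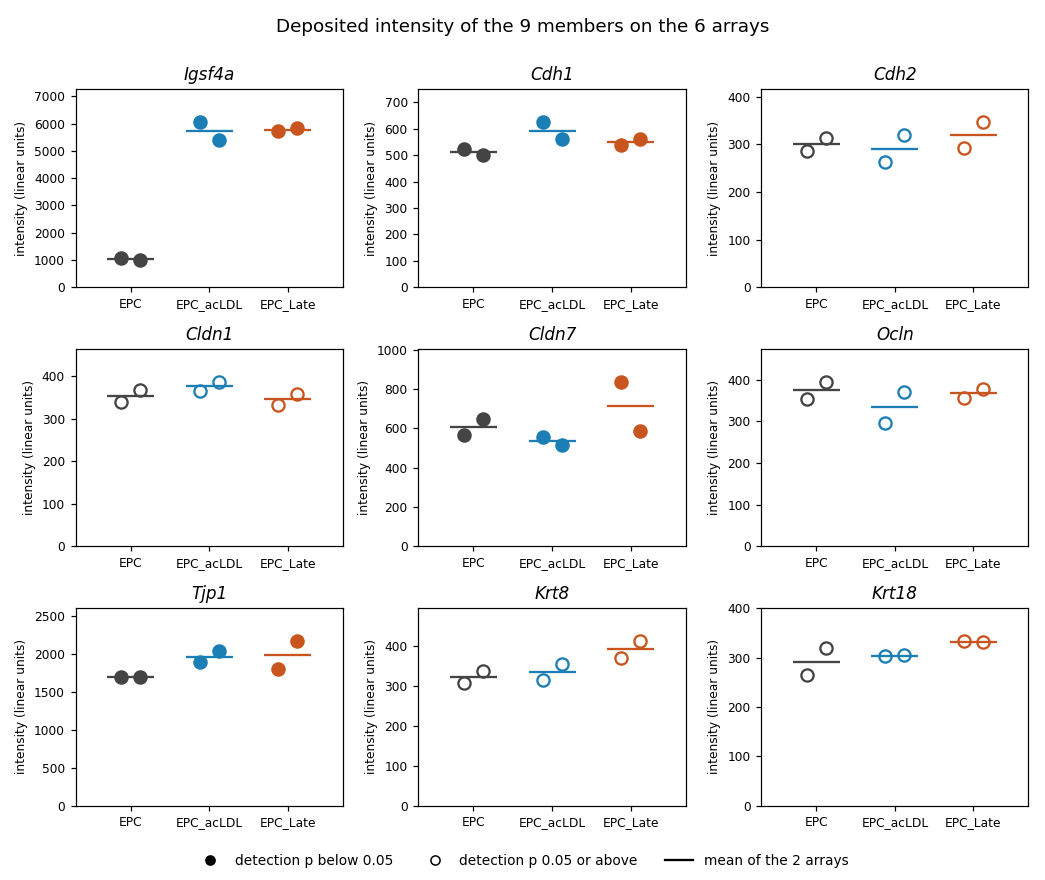
Deposited intensity (linear units) of the 9 members on the 6 arrays, 1 panel per gene, with each array a point, the mean of the 2 arrays a line, and open points where the detection p was 0.05 or above. Igsf4a lies at 997 and 1057 in EPC and between 5385 and 6041 in the other lines, and 5 genes have open points only.

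The cadherins came next. Cdh1, the cadherin of epithelial adherens junctions, had an intensity of 523 and 502 in EPC, 624 and 562 in EPC_acLDL, and 539 and 561 in EPC_Late. The highest array of Cdh1 was 1.24 times its lowest. On the normalized scale the arrays of each pair of lines overlapped. The log2 difference of Cdh1 was 0.22 for EPC_acLDL minus EPC (95% interval -0.25 to 0.70), -0.03 for EPC_Late minus EPC (-0.50 to 0.45) and -0.25 for EPC_Late minus EPC_acLDL (-0.73 to 0.22), with limma's adjusted p at 0.576, 0.946 and 0.454. A typical probe (the median of absolute log2 differences) moved by 0.19, 0.25 and 0.23 in these comparisons, and the intervals of Cdh1 reach past it.

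Cdh2, the cadherin of mesenchymal and neural cells, was above background on none of the 6 arrays. Its intensity was between 263 and 346 and its detection p between 0.588 and 0.868, so no fold is given.

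Of the claudins and their partners, Cldn7 varied most between arrays. Its intensity was 567 and 646 in EPC, 558 and 515 in EPC_acLDL, and 837 and 588 in EPC_Late. Both EPC_acLDL arrays were below both EPC arrays, whereas the EPC_Late arrays stood apart from each other, with a log2 SD of 0.79 against 0.20 in EPC and 0.39 in EPC_acLDL.

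The log2 difference of Cldn7 was -0.73 for EPC_acLDL minus EPC (SE 0.37, 95% interval -1.62 to 0.17, limma's adjusted p = 0.329), and 0.18 for EPC_Late minus EPC (-0.72 to 1.08, adjusted p = 0.803). EPC_Late minus EPC_acLDL was 0.90 (0.0047 to 1.80), with an unadjusted p of 0.0491 and limma's adjusted p of 0.155. This last difference rested on EPC_Late replicate 1. Without EPC_Late replicate 2 it was 1.46, and without EPC_Late replicate 1 it was 0.35. The first passed in limma (adjusted p = 0.0322), but that fit has 1 EPC_Late array and assumes that it varies like the other lines, where the SD of Cldn7 was 0.20 and 0.39, against 0.79 within EPC_Late. In EPC_Late minus EPC, leaving out EPC_Late replicate 1 turned the sign to -0.38.

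Tjp1, the scaffold under tight junctions of epithelial and endothelial cells alike, had an intensity of 1699 and 1689 in EPC, 1891 and 2031 in EPC_acLDL, and 1799 and 2167 in EPC_Late. The EPC arrays were the lowest 2 of the 6 as deposited. After normalization Tjp1 differed by -0.05 in log2 for EPC_acLDL minus EPC (95% interval -0.39 to 0.29), by 0.17 for EPC_Late minus EPC (-0.17 to 0.51) and by 0.22 for EPC_Late minus EPC_acLDL (-0.12 to 0.56), with limma's adjusted p at 0.888, 0.473 and 0.356. The first of these signs turned to 0.17 with the shift to a common 75th percentile.

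Cldn1 and Ocln, both strand proteins of tight junctions, were above background on none of the 6 arrays. Cldn1 had an intensity between 331 and 387 with a detection p of 0.119 to 0.524, and Ocln between 296 and 395 with a detection p of 0.118 to 0.558. Neither gets a fold. The study's gene list gives Cldn1 as higher in EPC_Late than in each of the other lines, and no direction is given for it here.

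The keratins were likewise at background. Krt8 had an intensity of 307 and 339 in EPC, 317 and 356 in EPC_acLDL, and 372 and 414 in EPC_Late, and its detection p ran from 0.118 to 0.508. Its EPC_Late arrays were the brightest 2, still within the range of the negative control beads. The study's gene list gives Krt8 as lower in EPC_acLDL and EPC_Late than in EPC. No direction is given here for a probe at background. Krt18 lay between 265 and 334 with a detection p of 0.479 to 0.896.

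Of the 3 tested members (Cldn7, Cdh1 and Tjp1), 0 passed limma's adjusted p of 0.05 in each comparison. Over all 2333 probes tested, 3.3% passed in EPC_acLDL against EPC (1.93% higher and 1.37% lower in EPC_acLDL), 23.9% in EPC_Late against EPC (10.9% higher and 13% lower in EPC_Late) and 20.9% in EPC_Late against EPC_acLDL (9.34% higher and 11.5% lower). With 3 probes, a count of 0 is near these shares. At an unadjusted p under 0.05 in limma, 0, 0 and 1 of the 3 passed (Cldn7 in EPC_Late against EPC_acLDL), where 20.1%, 34.5% and 31.9% of all probes did. The methods' t-test called 0 of the 3 in each comparison, with and without adjustment.

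**Figure D2:**
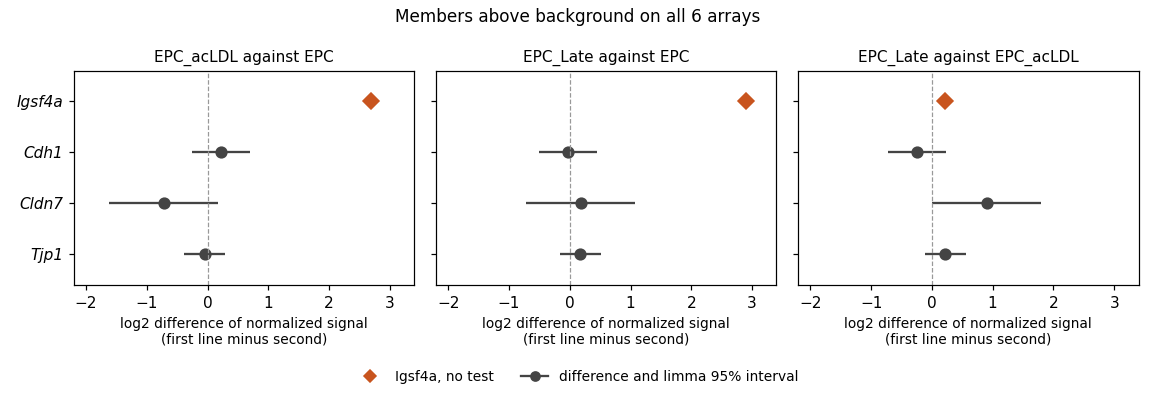
Log2 difference of the normalized signal (x axis, first line minus second) for the 4 members above background on all 6 arrays, with limma's 95% interval for the tested genes and none for Igsf4a. Igsf4a lies at 2.69, 2.90 and 0.215, and the intervals of Cdh1 and Tjp1 span 0 in all 3 comparisons, while that of Cldn7 in EPC_Late against EPC_acLDL begins at 0.0047.

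Of the relatives and tail partners of Igsf4a, 4 probes entered the test, PVRL2 and Dlg1 through 1 line only. PVRL3 and Cask, above background on all 6 arrays, passed in no comparison, and 0 of 2 probes is near the shares over all probes (3.3%, 23.9% and 20.9%). In the list of nectins and nectin-like molecules, 17 of 20 probes were above background on no array, and besides Igsf4a only PVRL2 and PVRL3 were tested. PVRL3, a nectin that binds across cell contacts, had an intensity of 2048 and 2038 in EPC, 2683 and 2800 in EPC_acLDL, and 2275 and 2352 in EPC_Late. Its log2 difference was 0.23 for EPC_acLDL minus EPC and 0.18 for EPC_Late minus EPC (limma's adjusted p = 0.333 and 0.354), and -0.05 for EPC_Late minus EPC_acLDL (adjusted p = 0.83). Both deposited PVRL3 values of EPC_acLDL lay above both of EPC. PVRL2, another nectin, was above background on 4 of 6 arrays, with an intensity of 443 and 441 in EPC, 400.1 and 472 in EPC_acLDL, and 457 and 499 in EPC_Late. It entered the test only through EPC_Late, where its mean was highest, so no fold or p is given for it. By deposited intensity EPC_Late lay above EPC and overlapped EPC_acLDL. After normalization it overlapped EPC and lay above EPC_acLDL, so no order of the lines is read from this probe.

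Of the tail partners, 22 of 24 probes were above background on no array. Cask, a membrane guanylate kinase scaffold, was bright on all 6 arrays, from 3554 to 4531. Its log2 difference was 0.07 for EPC_acLDL minus EPC (95% interval -0.21 to 0.36), -0.06 for EPC_Late minus EPC (-0.35 to 0.22) and -0.14 for EPC_Late minus EPC_acLDL (-0.42 to 0.15). Dlg1, a scaffold of the same family, was close to background, with an intensity of 413 and 442 in EPC, 450 and 493 in EPC_acLDL, and 445 and 470 in EPC_Late. It was above background on both arrays of EPC_acLDL and on neither of EPC, and entered the test only through EPC_acLDL. No fold or p is given for it.

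Junction and epithelial genes beyond the members were counted over 8 lists, with the transcription factors known to repress Cdh1 among them. Of 253 probes besides the members, 29 were tested. In EPC_acLDL against EPC 2 passed (6.9%), both higher, where 3.3% of all tested probes passed. In EPC_Late against EPC 7 passed (24.1%, 4 higher and 3 lower), and in EPC_Late against EPC_acLDL 6 (20.7%, 3 higher and 3 lower). The last 2 shares were near those over all probes (23.9% and 20.9%). Without CSDA, which stands in the study's list drawn from these arrays, the counts were 1, 5 and 4 of 27 (3.7%, 18.5% and 14.8%). Without both CSDA and a Prrx1 probe that passed the filter through EPC_Late alone, they were 1, 4 and 3 of 26, and without CSDA and every probe that passed it through 1 line, 1, 4 and 3 of 23. These reduced counts were chosen after seeing the data.

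The list counts depended on single arrays. In EPC_acLDL against EPC 0 passed without EPC replicate 1 or either EPC_acLDL array, and 1 without any other array. In EPC_Late against EPC_acLDL 2 passed without EPC_acLDL replicate 2, and 3 without EPC_acLDL replicate 1 or either EPC_Late array. In EPC_Late against EPC the count was 5 or 6 with any array left out. The list count in EPC_acLDL against EPC was 5 with an offset of 50, 6 with no background correction and 4 with the 75th percentile. Over all probes 164, 273 and 138 of 2333 passed in these settings, against 77 in the main fit. With a detection p under 0.01 on all arrays the list count was 5, where 171 of 902 probes passed. It was 1 with no filter and 1 with only the arrays of those lines, where 50 of 25697 and 39 passed. The list count thus rose and fell with the calls over all probes. In EPC_Late against EPC the filter at 0.01 left 4 list probes, where 471 of 902 probes passed. After adjustment the methods' t-test called 0 in each comparison, where it called 0.0429%, 0.643% and 0.471% of all probes. Unadjusted it called 7, 9 and 8 of 29, where it called 15.2%, 25.1% and 24.3% of all probes. The median log2 difference of the lists was -0.01, -0.02 and 0.01, where that of all probes was 0.01, 0.01 and 0.00.

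Adherens junction genes that passed were the actin linkers. Actn1, an alpha-actinin that crosslinks actin at junctions and focal contacts, fell from 4625 and 4573 in EPC to 2597 and 2523 in EPC_Late, with 4026 and 3939 in EPC_acLDL. The log2 difference was -1.0 (SE 0.11, limma's adjusted p = 0.00136) for EPC_Late minus EPC and -0.57 for EPC_Late minus EPC_acLDL (adjusted p = 0.0135), and the second call was lost when either array of either of its lines was left out. Its relative Actn4 had 2 probes, which both fell in EPC_Late against EPC_acLDL but differed in sign for EPC_acLDL minus EPC, at -0.33 and 0.43 (limma's adjusted p = 0.171 and 0.104). The first fell by 1.15 against EPC and by 0.81 against EPC_acLDL (adjusted p = 0.001 and 0.00447). The second had a difference of -0.19 against EPC (adjusted p = 0.297) and fell by 0.62 against EPC_acLDL (adjusted p = 0.0121), a call that leaving out either array of either line ended. The cadherins and catenins of this list, other than Cdh1, were not among the tested probes.

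In the tight junction list 60 of 73 probes were above background on no array. Besides CSDA, 0 probes of this list passed in any comparison. CSDA, a Y-box DNA-binding protein that associates with Tjp1 at tight junctions, is in the gene list that the study drew from these arrays, with the opposite direction against EPC, so its values are given as a description. Its brighter probe measured 2733 and 2787 in EPC, 4954 and 4448 in EPC_acLDL, and 6868 and 6226 in EPC_Late. The log2 difference of that probe was 0.57 for EPC_acLDL minus EPC, 1.27 for EPC_Late minus EPC and 0.70 for EPC_Late minus EPC_acLDL. For the dimmer probe it was 1.11 for EPC_acLDL minus EPC, 2.05 for EPC_Late minus EPC and 0.94 for EPC_Late minus EPC_acLDL. The lines did not overlap on either probe. No desmosome, keratin or epithelial regulator probe passed, of 2, 1 and 3 tested. Over all probes 3.3%, 23.9% and 20.9% passed, and nothing is read from zeros among so few probes.

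Among the known repressors of Cdh1, 12 of 17 probes were above background on no array and 5 were tested. Of these, 1, 2 and 1 were called higher and 0, 1 and 0 lower in the 3 comparisons. Over all probes 3.3%, 23.9% and 20.9% passed. Zeb2, above background on all 6 arrays, passed in none. It differed by -0.08 for EPC_acLDL minus EPC, 0.16 for EPC_Late minus EPC and 0.24 for EPC_Late minus EPC_acLDL (limma's adjusted p = 0.813, 0.502 and 0.32). Tcf4, an E-box binding factor, had an intensity of 713 and 673 in EPC, 1013 and 1032 in EPC_acLDL, and 919 and 938 in EPC_Late. It rose by 0.69 for EPC_acLDL minus EPC (limma's adjusted p = 0.0429). That call was lost when any 1 of the 6 arrays was left out and with no filter on detection. It was also lost with a block for replicate number in the fit and with only the arrays of those lines. For EPC_Late minus EPC, Tcf4 rose by 0.54 (limma's adjusted p = 0.0217), a call lost without EPC replicate 2 or either EPC_Late array. Twist1, a mesenchymal factor, fell by 0.64 for EPC_Late minus EPC (adjusted p = 0.0152), lost without EPC replicate 1 or EPC_Late replicate 1.

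Prrx1, a homeobox factor of mesenchyme, had 2 probes. One was above background on neither EPC array, on 1 EPC_acLDL array and on both EPC_Late arrays, with an intensity of 401 and 438 in EPC, 431 and 451 in EPC_acLDL, and 488 and 547 in EPC_Late. It entered the test only through EPC_Late, the line in which it was brightest. It is among the probes counted as passing in both comparisons of EPC_Late, but nothing is read from that, and no fold or p is given. The other Prrx1 probe had a difference of 0.44 for EPC_Late minus EPC (adjusted p = 0.152). The Cdh1 values beside these are those above, with limma's adjusted p of 0.454 or more in every comparison.

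**Figure D3:**
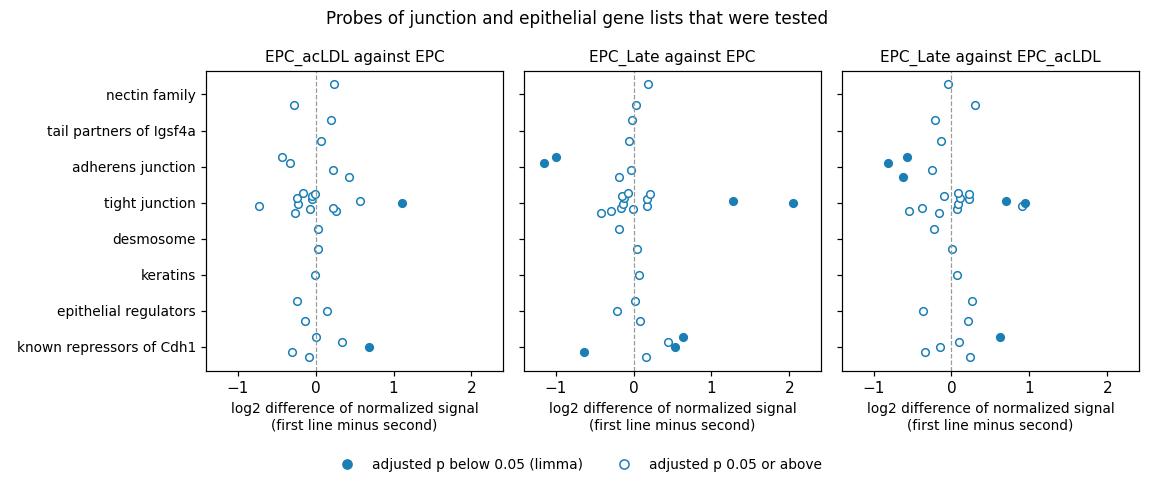
Log2 difference of the normalized signal (x axis) for each tested probe of the 8 gene lists (y axis), members included and Igsf4a left out, with filled points at limma's adjusted p below 0.05. The filled points to the right in tight junctions are the CSDA probes, and those to the left in adherens junctions are Actn1 and Actn4. Nothing is read from the filled points of CSDA, or of the Prrx1 probe that entered through EPC_Late alone.

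Cell type markers were mostly at background in all 3 lines, as were most probes on the array. Of the endothelial markers, 31 of 33 probes were above background on no array, Pecam1 and Cdh5 among them. Kdr, the gene behind the Flk-1 sort, was above background on all 6, and Mcam on 3. Of the epithelial markers, 19 of 22 probes were on none, the exceptions being Cdh1, Cldn7 and Elf3 on all 6. Lung epithelium, mesothelium and blood markers had 16 of 18, 9 of 10 and 22 of 23 probes on none. Over the whole array, 22811 of 25697 probes were on none, so these counts are not read as a result about cell types.

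The summed intensity of the epithelial markers was 7395 to 8063 in EPC, 7401 to 8148 in EPC_acLDL and 8290 to 8299 in EPC_Late. That of the endothelial markers was 10240 to 11440 in EPC, 10371 to 11431 in EPC_acLDL and 11255 to 11956 in EPC_Late. These are sums of deposited intensities, before normalization, mostly of probes at background. The mean sum in EPC_Late was above that in EPC by 7.32% for the epithelial and 7.06% for the endothelial markers, and by 6.69%, 6.12% and 6.95% for lung epithelium, mesothelium and blood. The median intensity of all probes was also higher, 337 and 359 in EPC_Late and 311 and 342 in EPC. The part of these sums in the Igsf4a result was not tested.

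The mesenchymal sum was 11087 to 11544 in EPC, 12117 to 12831 in EPC_acLDL and 16069 to 16504 in EPC_Late, with 24 of 29 probes on no array. Without 1 Sparc probe the sums were 9138 to 9842, 9030 to 9962 and 9629 to 10381, and the lines overlapped. That probe of Sparc, a matrix glycoprotein, rose by 1.94 for EPC_Late minus EPC and by 1.37 for EPC_Late minus EPC_acLDL (limma's adjusted p = 0.00022 and 0.000941). Col1a2 rose by 0.43 for EPC_Late minus EPC (adjusted p = 0.047), a call lost under each of 12 other settings. Twist1, in the same list, fell as given above, and Acta2, a smooth muscle actin, differed by -0.18 (adjusted p = 0.45). In bulk samples such as these, fewer cells of a type and less RNA per cell cannot be told apart.

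The probes most like Igsf4a across the 6 arrays, by Pearson correlation of the normalized log2 signal, were EVI1 (0.993), a zinc finger transcription factor, Gipc1 (0.990), a PDZ scaffold, a RIKEN clone gene named only by its number on the array (probe ILMN_3130719, 0.989), Rnf167 (0.987), a membrane ubiquitin ligase, and Ckb (0.987), brain-type creatine kinase. Their EPC_acLDL minus EPC differences ran from 0.36 for EVI1 to 1.61 for the RIKEN gene. The lowest correlations were those of Fst (-0.991), a secreted activin antagonist, Ehbp1l1 (-0.986) and HIST1H2BF (-0.984), a histone. The Fst difference was -1.95 for EPC_acLDL minus EPC and -2.19 for EPC_Late minus EPC. With 4 arrays high and 2 low for Igsf4a, these values mainly record the gap between EPC and the other lines, and all points share arrays and normalization.

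The likeness lists of the remaining members rested on much smaller differences. For Cldn7 the 5 highest were Lrrc46, Nkx2-3, Capg, BC017647 and Ube2j2 (0.910 to 0.938). For Cdh1 they were Sp8, Sohlh2, Nacc1, Acaa2 and Olfr166 (0.931 to 0.940), and for Tjp1 they were Jrk, Ctf1, Foxl2, Rab11fip3 and Arl2 (0.914 to 0.949).

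**Figure D4:**
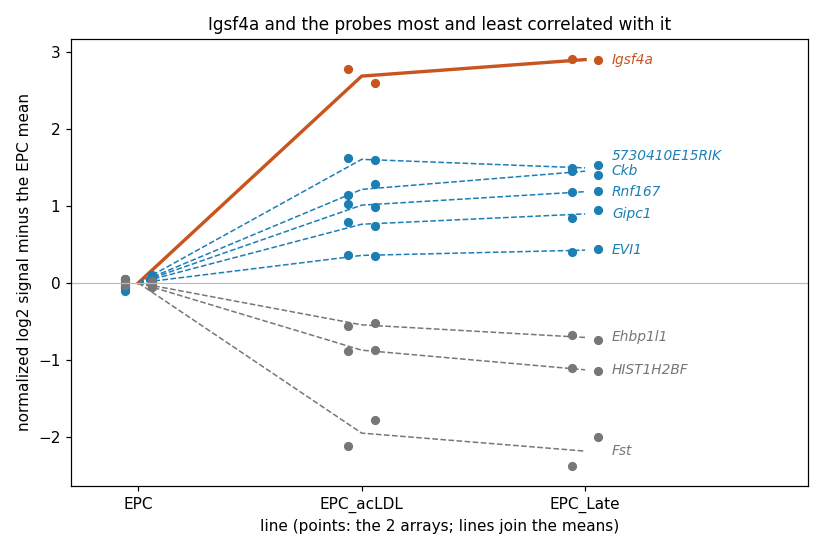
Normalized log2 signal minus the EPC mean (y axis) in the 3 lines for Igsf4a and the 5 probes most and 3 least correlated with it over 6 arrays, with points for arrays and lines joining the means. Igsf4a lies at 2.69 and 2.90, the 5 most similar probes lie between it and 0, and Fst lies at -1.95 and -2.19.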

How the data were processed

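RNA of 6 samples (3 lines, 2 arrays each) was hybridised to Illumina MouseRef-8 arrays. The authors deposited an intensity for each probe, not normalized, and a detection p-value from the negative control beads, both per the file headers. Groups were taken from the sample titles. All columns of values were used.

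Intensities were background corrected from the detection p-values, given an offset of 16, quantile normalized and put on the log2 scale with neqc in limma 3.58.1 (R 4.3.3). The test took in every probe that both arrays of some line placed above background (detection below 0.05). A single limma model held all 6 arrays, with Benjamini-Hochberg adjustment over all probes tested and a two-sided threshold of 0.05. A line above background on neither array has only a bound. The number of arrays limits the precision.

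The members and lists were chosen with earlier results of these data known. Named genes were every member, every tested relative or tail partner of Igsf4a, every tested repressor of Cdh1, list and marker probes that passed, and the probes most and least correlated with Igsf4a. The RefSeq table named Igsf4a as a synonym of Cadm1, and promoter windows of 6 members were examined. Member windows on chromosome 18, where Cdh2 lies, were left out of this step. Motifs were sought on both strands.

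The fit was tested on simulated data of 2 kinds. In the first, where dim probes carried no signal of their own, many probes without a change were called, mostly dim ones that passed the detection filter through 1 line. The second gave each dim probe a stable level, was made after that result was seen, and had far fewer such calls. Calls of dim probes that entered through 1 line therefore need the most caution. Alternatives covered background correction, normalization, the filter, the arrays in the fit, a replicate block and the methods' t-test.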

Additional observations from a re-analysis of the deposited data

How the results depend on the processing

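The difference of Igsf4a from EPC ranged from 2.25 to 2.86 in EPC_acLDL and from 2.45 to 2.95 in EPC_Late (log2) over the alternatives. The filters and the replicate block cannot change this value by their construction, and the gene was chosen for its rank on these arrays. It was 2.50 and 2.71 with an offset of 50, 2.25 and 2.45 with no background correction, and 2.86 in EPC_acLDL with a common 75th percentile, where EPC_Late minus EPC_acLDL was 0.023. Leaving out 1 array gave 2.60 to 2.78, 2.84 to 2.95 and 0.12 to 0.31 in the 3 comparisons.

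Small member differences were less stable. With the 75th percentile, Tjp1 turned to 0.17 in EPC_acLDL minus EPC and Cdh1 to 0.013 in EPC_Late minus EPC. Leaving out 1 array spread Cdh1 from -0.017 (without EPC_acLDL replicate 1) to 0.46 in EPC_acLDL minus EPC and from -0.20 to 0.14 (without EPC replicate 1) in EPC_Late minus EPC, Tjp1 from -0.11 to 0.027 (without EPC_acLDL replicate 1) in EPC_acLDL minus EPC, and Cldn7 from -0.38 (without EPC_Late replicate 1) to 0.73 in EPC_Late minus EPC and from 0.35 to 1.46 in EPC_Late minus EPC_acLDL. The count of members passing stayed at 0, except for 1 (Cldn7) in EPC_Late against EPC_acLDL without EPC_Late replicate 2. The cause was not tested.

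The count of probes passing in EPC_acLDL against EPC, 77, moved most. It was 164 with an offset of 50, 273 with no background correction, 138 with the 75th percentile, 50 with no filter, 171 with a detection p under 0.01 on all arrays (902 probes tested), 39 with the arrays of those lines only, and 9 to 36 with 1 array left out. Leaving out 1 array gave 370 to 468 in EPC_Late against EPC (main count 557) and 203 to 460 in EPC_Late against EPC_acLDL (main count 487). The methods' t-test called 355 unadjusted in EPC_acLDL against EPC, and 1, 15 and 11 after adjustment in the 3 comparisons.

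The 75th percentile moved the median of all probes to 0.16 in EPC_acLDL minus EPC and to -0.15 in EPC_Late minus EPC_acLDL, and the share of calls that were higher from 58.4% to 82.6% and from 44.8% to 26.1%. The Tjp1 difference of 0.17 under this setting was close to that shift. Replicate numbers are shared by the lines, but deviations of same-numbered arrays correlated at only 0.02 to 0.08, which did not establish a pairing. The labels do not say whether a number marks an experiment, and the median intensity as deposited was higher on replicate 2 than on replicate 1 in all 3 lines. With the replicate block the count in EPC_acLDL against EPC was 43, and in the others 547 and 458. The list count in EPC_acLDL against EPC went from 2 to 1, as the call of Tcf4 was lost (limma's adjusted p = 0.0656). Signal over background limits what can be said of the 5 members at background.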
